A study of Homo sapiens with 12 samples.

Results

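The nuclear-encoded subunits of the 5 respiratory chain complexes were followed on 12 Affymetrix arrays of HEK cells, an established human embryonic kidney line. Members were genes whose platform symbol begins with NDUFA, NDUFB, NDUFC, NDUFS or NDUFV and a digit (complex I), SDHA to SDHD (complex II), UQCR or CYC1 (complex III), COX4 to COX8 (complex IV) or ATP5 (complex V), without pseudogenes and antisense transcripts. Of 19775 genes with a probe set of their own, 77 were members: 32 of complex I, 3 of complex II, 7 of complex III, 17 of complex IV and 18 of complex V. Each was read from its brightest probe set (a set of short probes giving 1 signal per array), chosen by the mean log2 signal over all 12 arrays. Whether a probe set also reads other transcripts was not examined. NDUFC2, NDUFS5, NDUFS8 and UQCRH lay on probe sets shared with other symbols and were no members.

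The cells were stable lines that carry a tetracycline-inducible TRPM7, a membrane protein that is both an ion channel and a kinase. The WT line carries the wild-type channel, and the mutant line carries TRPM7 without its C-terminal kinase domain, which the study uses as a non-functional control for effects of the inducer itself. Both lines grew with blasticidin at 5 ug/mL, and each was either untreated or given tetracycline for 72 hours (1 ug, with no volume in the labels), which makes 4 groups of 3 arrays, an untreated and a tetracycline group in each line. There is 1 line per channel form, and the labels do not say whether a line is a clone or whether the 3 arrays came from separate cultures, so p-values measure the spread between these arrays and a line cannot be told apart from its channel.

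The groups are named as labelled. The TRPM7 probe set was at 8.12 to 8.68 in the WT untreated arrays and at 6.88 to 8.19 in the WT arrays with tetracycline (log2 change -0.85, limma adjusted p = 0.0643), so it shows no rise with the inducer and does not check the labels. Of 9 HEK markers 8 were measured above the filter, among them VIM, KRT18, NEFL and IRS4. In the WT line IRS4 was at a mean of 14.93 untreated and 13.37 with tetracycline (14.77 and 14.64 in the mutant line), and VIM at 14.85 and 15.50 (14.98 and 15.21). Of the markers of blood, endothelium, fibroblasts and striated muscle, 6 of 22 were. In the WT line with tetracycline the summed fibroblast list was at 10.3 to 10.5 on the log2 scale against 9.31 to 9.87 untreated, and the muscle list at 8.50 to 8.73 against 7.62 to 8.03; the fibroblast genes COL1A2, COL3A1, DCN, LUM and PDGFRB were all below the filter. The part of these markers in the results was not tested.

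Electrons from NADH enter the chain at complex I and those from succinate at complex II. Coenzyme Q carries them to complex III and cytochrome c to complex IV, where oxygen is reduced, and ATP synthase (complex V) uses the proton gradient built by complexes I, III and IV. A few subunits of complexes I, III, IV and V are encoded by mitochondrial DNA, and the genes described here supply the rest from the nucleus. Nuclear respiratory factor 1 (NRF1), the ETS factor GABP and YY1 are known to bind the promoters of many of them.

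Of the 77 members, 65 had a promoter window in the RefSeq table (GRCh38.p14), which spans 250 bases before to 50 bases after a start site. Both strands were searched for GCGCATGCG and the looser GCGCANGCG (NRF1), CCGGAAG and the longer CCGGAAGTG that contains it (ETS factors), and AAGATGGCG (YY1). GCGCATGCG was found in 11 of the 65 members (16.9%) against 2.34% of all 27305 genes with a window, and GCGCANGCG in 22 (33.8%) against 9.02%. CCGGAAG was found in 19 (29.2%) against 12.2%, CCGGAAGTG in 3 (4.62%) against 2.81%, and AAGATGGCG in 8 (12.3%) against 2.14%. A match is a description of letters and not of a bound site.

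The 100 bases before the start are shown for NDUFA7, NDUFB7 and NDUFA3, complex I genes that fell in the WT line with tetracycline, because each had 1 window and no second gene lying across it. All 3 are on chromosome 19: NDUFA7 at chr19:8321376-8321475 on the minus strand, NDUFB7 at chr19:14572067-14572166 on the minus strand and NDUFA3 at chr19:54102755-54102854 on the plus strand. Each is written 5′ to 3′ along its gene, with a motif in capitals.
NDUFA7: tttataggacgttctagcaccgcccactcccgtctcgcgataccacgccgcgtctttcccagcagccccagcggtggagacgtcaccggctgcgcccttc
NDUFB7: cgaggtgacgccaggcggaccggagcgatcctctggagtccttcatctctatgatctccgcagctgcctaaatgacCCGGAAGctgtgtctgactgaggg
NDUFA3: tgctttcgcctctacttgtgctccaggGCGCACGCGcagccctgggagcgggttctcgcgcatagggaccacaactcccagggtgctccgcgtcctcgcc
NDUFA7 shows no motif in this stretch, and its AAGATGGCG lies elsewhere in the longer window. NDUFB7 shows the ETS letters and NDUFA3 the looser NRF1 letters. No motif among those searched was common to these 3 stretches.

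Tetracycline in the WT line, which asks what the functional channel with its inducer does, was followed by small changes of both signs in the respiratory chain. NDUFA7, NDUFS6, NDUFB7, NDUFB8, NDUFB9 and NDUFA3 of complex I and ATP5MC1, ATP5MC2 and ATP5F1D of complex V fell. UQCRC1 and UQCRB of complex III and NDUFV3 of complex I rose. With COX8C, a testis isoform of complex IV that passed the filter on dim signals only through the group where it was high and whose call is therefore no support, that is 13 of the 73 members that passed this filter, 4 higher and 9 lower at a limma adjusted p under 0.05, which is a share near the 16.9% called among all 29553 tested probe sets (7.83% higher and 9.11% lower). Changes are log2 differences of MAS5 signal with the standard error (SE) of the fit over all 12 arrays and n = 3 per group; fewer cells with a transcript and less of it per cell cannot be told apart in bulk RNA.

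**Figure D1:**
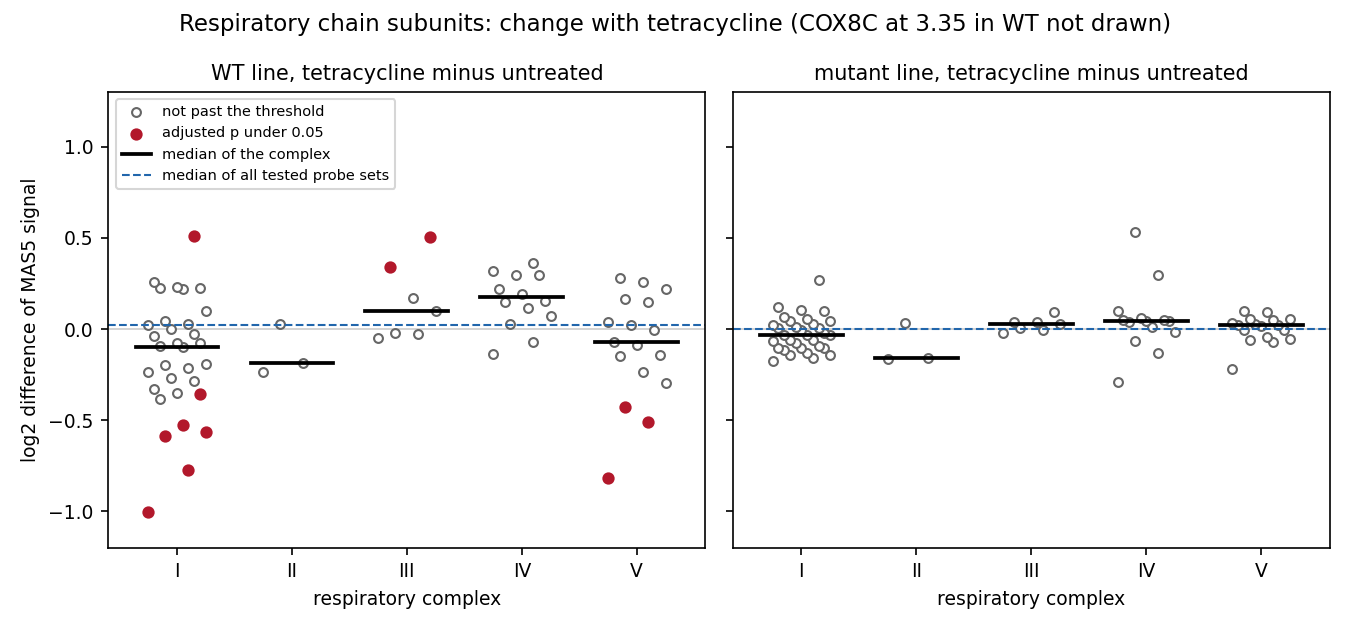
Each point is 1 member, placed by complex (I to V) with its log2 change of MAS5 signal with tetracycline in the WT line (left) and the mutant line (right); filled points passed an adjusted p of 0.05, thick bars are medians of the complex and the dashed line is the median of all 29553 tested probe sets. In the WT line the filled points below 0 are in complexes I and V, and in the mutant line no point is filled.

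The complexes differed in their median change in the WT line, which was given no test. It was -0.10 over 32 members of complex I, -0.19 over 3 of complex II, 0.10 over 7 of complex III, 0.17 over 14 of complex IV and -0.07 over 17 of complex V, beside 0.02 for all tested probe sets. Complex I had 1 member higher and 6 lower, complex III 2 higher, complex IV 1 higher (COX8C) and complex V 3 lower. In complex II none of SDHA, SDHC and SDHD passed limma's threshold, and 0 had an unadjusted p under 0.05. Of the 11 complex IV members that are not tissue isoforms, 0 passed limma's threshold, 4 had an unadjusted p under 0.05 and 9 had a positive difference. Groups did not overlap for 19 members lower with tetracycline and 5 higher, against 13.0% and 13.7% of all tested probe sets.

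NDUFA7, an accessory subunit in the matrix arm of complex I, was at 11.47, 11.70 and 11.50 in the WT untreated arrays and at 10.53, 10.49 and 10.64 with tetracycline. All 3 treated arrays lay about 1 log2 unit below the untreated ones, and the groups were far apart. The change was -1.01 (SE 0.120, adjusted p = 0.000251). A second, dim probe set of NDUFA7 (mean 6.73) differed by -0.17 (adjusted p = 0.893), and with the mean of all probe sets of the gene the change was -0.59 and did not pass (adjusted p = 0.290). NDUFS6, a zinc-binding accessory subunit of the same arm, was at 13.99, 13.93 and 13.77 untreated and at 13.49, 13.20 and 13.24 with tetracycline. Again every treated array was below every untreated one, with a change of -0.59 (SE 0.113, adjusted p = 0.00346). Of the 14 matrix arm members 2 fell and 1 rose.

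The riser was NDUFV3, an accessory subunit at the NADH-oxidising tip, at 12.47, 12.68 and 12.49 untreated and 12.77, 13.15 and 13.26 with tetracycline (0.51, SE 0.135, adjusted p = 0.0190). Its treated arrays were above the untreated ones, with replicate 1 nearest to them. NDUFV1, the core subunit that binds NADH, differed by -0.20 without passing (adjusted p = 0.238). NDUFV3 did not pass without WT untreated replicate 1 or 3 or WT with tetracycline replicate 2 or 3 (adjusted p = 0.0559 to 0.0849).

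In the membrane arm of complex I, which pumps protons, 4 of 18 members fell. NDUFB9 changed by -0.56 (SE 0.139, adjusted p = 0.0137), with 13.41, 13.39 and 13.45 untreated and 13.14, 12.86 and 12.56 with tetracycline. NDUFB7 changed by -0.77 (SE 0.198, adjusted p = 0.0163), from 11.95, 11.69 and 11.80 to 11.25, 10.78 and 11.10. Both are accessory subunits, and the treated arrays of each were below all untreated ones. NDUFA3, another accessory subunit of this arm, changed by -0.53 (SE 0.137, adjusted p = 0.0173), from 11.71, 11.96 and 11.59 to 11.20, 11.27 and 11.22. NDUFB8 was at the threshold itself, with -0.36 (SE 0.117, adjusted p = 0.04997). A second, nearly as bright probe set of NDUFB8 fell by 0.52 (adjusted p = 0.00404). NDUFB9 no longer passed without WT with tetracycline replicate 3 (-0.41, adjusted p = 0.0608), NDUFB7 without WT untreated replicate 1 (adjusted p = 0.0533) or WT with tetracycline replicate 2 (adjusted p = 0.0778), and NDUFA3 without WT untreated replicate 2 (adjusted p = 0.0543).

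In ATP synthase the falls were in the c-ring, the rotor that protons turn, and in the central stalk. The c subunit is encoded by 3 genes that give the same mature protein. ATP5MC1 was at 11.67, 11.88 and 11.95 untreated and at 10.94, 10.95 and 11.16 with tetracycline, a change of -0.82 (SE 0.138, adjusted p = 0.00159). ATP5MC2 was at 13.89, 13.93 and 13.86 untreated and at 13.62, 13.23 and 13.56 with tetracycline, a change of -0.43 (SE 0.105, adjusted p = 0.0136). In both genes the treated arrays were below all untreated ones. ATP5MC3 was at 14.00, 14.19 and 14.15 untreated and at 13.98, 14.16 and 14.18 with tetracycline; its groups lay on each other (-0.00, SE 0.0951, adjusted p = 0.984). ATP5F1D, the delta subunit of the central stalk, changed by -0.51 (SE 0.145, adjusted p = 0.0277), from 11.35, 11.56 and 11.61 to 10.85, 10.83 and 11.31. A second, dimmer probe set of ATP5F1D (mean 10.1) differed by -0.13 and did not pass (adjusted p = 0.634), so the call rests on 1 probe set. The catalytic beta subunit ATP5F1B differed by 0.22 (adjusted p = 0.0994) and the alpha subunit ATP5F1A by 0.04 (adjusted p = 0.807). Of the 4 peripheral stalk members 0 passed limma's threshold and 1 had an unadjusted p under 0.05, ATP5PD, with -0.30 (adjusted p = 0.0554). ATP5MC1 passed in all 22 alternatives of the analysis, whereas ATP5MC2 did not without WT with tetracycline replicate 2 (-0.30, adjusted p = 0.0654), and ATP5F1D did not without that array (adjusted p = 0.112) or WT untreated replicate 2 or 3 (adjusted p = 0.0593 and 0.0897).

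In complex III UQCRC1, a core subunit, was at 12.27, 12.37 and 12.28 untreated and at 12.54, 12.64 and 12.76 with tetracycline (0.34, SE 0.103, adjusted p = 0.0353). UQCRB, a small subunit near the ubiquinone site, was at 13.34, 13.54 and 13.70 untreated and at 13.64, 14.04 and 14.40 with tetracycline (0.50, SE 0.162, adjusted p = 0.0458). The groups of UQCRC1 stood apart, while those of UQCRB overlapped. CYC1, the cytochrome c1 that hands electrons to cytochrome c, differed by 0.10 (adjusted p = 0.618), and the second core subunit UQCRC2 by -0.05 (adjusted p = 0.836). The calls moved with single arrays: without WT with tetracycline replicate 2 the count of called members went from 13 to 5, and without replicate 3 to 7, in both cases with 0 higher, while without replicate 1 it was 19, with 9 higher and 10 lower. Without WT untreated replicate 3 it was 8, with 1 higher. UQCRC1 did not pass without 9 of the 12 arrays left out singly (adjusted p = 0.0505 to 0.118; it passed without WT untreated replicate 2, WT with tetracycline replicate 1 or mutant with tetracycline replicate 3), and UQCRB without any but WT with tetracycline replicate 1 (adjusted p = 0.0505 to 0.199).

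**Figure D2:**
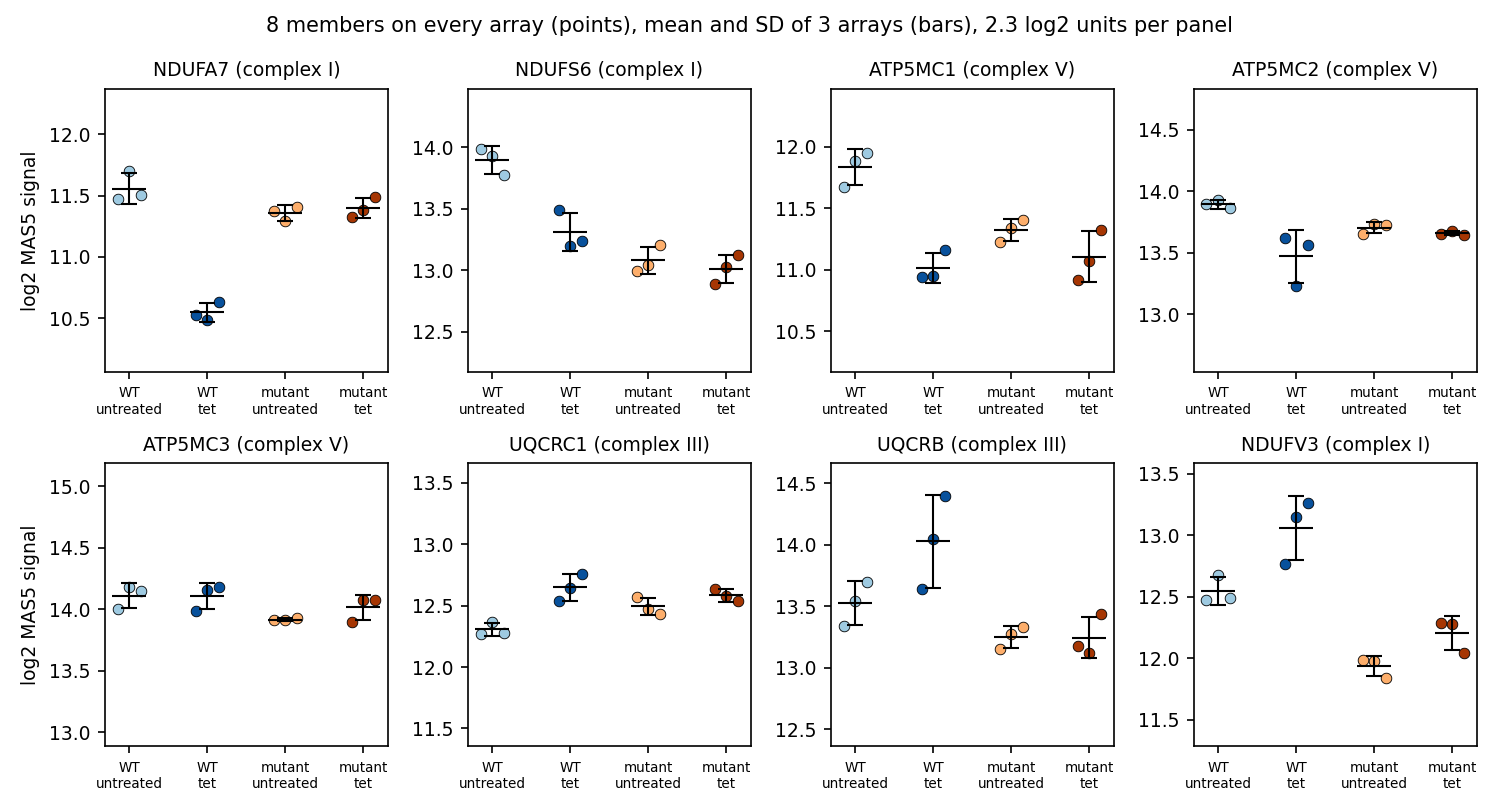
Points are single arrays, horizontal bars the mean and whiskers the SD of 3 arrays, for 8 members in the 4 groups; the vertical axis is log2 MAS5 signal and every panel spans the same number of log2 units. The WT arrays with tetracycline lie below the WT untreated ones for NDUFA7, NDUFS6, ATP5MC1 and ATP5MC2, on them for ATP5MC3 and above them for UQCRC1 and NDUFV3, while the mutant groups overlap except for NDUFV3.

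Tetracycline in the mutant line is the control for the inducer, given with the channel that lacks its kinase. There 0 of 73 members passed limma's threshold, as did 0.0% of all tested probe sets. At an unadjusted p under 0.05 the counts were 0 members and 620 of the 29553 probe sets, and with array weights 0 members passed. The complex medians lay between -0.16 (complex II) and 0.04 (complex IV). NDUFV3 had the smallest p of the members, with 11.99, 11.98 and 11.84 untreated and 12.29, 12.28 and 12.05 with tetracycline (0.27, SE 0.135, adjusted p = 1.00). It was one of only 2 members whose groups did not overlap, with COX7A2L; both were higher with tetracycline, beside 6.86% of all tested probe sets. The next smallest p belonged to ATP5MC1 (-0.22), COX4I2 (0.53), NDUFA3 (-0.16) and NDUFB8 (-0.13).

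The difference between the inductions, WT minus mutant, is the comparison that sets the channel against its inducer control. It passed the threshold for 1 member, NDUFA7, which was lower, beside 0.139% of all tested probe sets in either direction and 0.0744% lower. In the mutant line NDUFA7 was at 11.37, 11.29 and 11.41 untreated and at 11.33, 11.38 and 11.49 with tetracycline, so that 3 groups lay together between 11.29 and 11.70 and the WT group with tetracycline lay apart below them. The difference was -1.05 (SE 0.170, adjusted p = 0.0405). The sizes hardly moved over the 21 alternatives (-1.10 to -0.98), but the adjusted p went from 0.00175 to 0.832 and was above the threshold in 14 of them, among them each of 10 arrays left out singly (all but WT untreated replicate 1 and WT with tetracycline replicate 1; adjusted p = 0.0505 to 0.155).

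The members next in order did not pass. Leaving aside COX8C, they were NDUFS6 (-0.52, SE 0.160, adjusted p = 0.168), ATP5MC1 (-0.60, SE 0.196, adjusted p = 0.189) and ATP5MC2 (-0.38, SE 0.149, adjusted p = 0.256). So for these 3 genes a fall in the WT line and the lack of a call in the mutant line do not amount to a called difference. Without WT with tetracycline replicate 1 the count of called members rose to 5, NDUFS6 among them.

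The untreated lines were compared to see how far they differ before any inducer is given. In the WT line 14 members were higher and 0 lower at limma's threshold, beside 4.19% and 8.70% of all tested probe sets (12.9% in either direction); 29 members had an unadjusted p under 0.05. The difference, WT minus mutant, was positive for 62 of 73 members. Its median was 0.20, against -0.09 for all tested probe sets, and by complex 0.19 (I), 0.24 (II), 0.18 (III), 0.27 (IV) and 0.20 (V). Groups did not overlap for 38 members higher in the WT line and 4 lower (ATP5F1D, COX8C, NDUFV1 and UQCRC1), against 13.4% and 22.1% of all tested probe sets. Other bright probe sets shared the direction: over 2095 with a mean above 12 the median was 0.14, with 14.7% higher and 4.34% lower.

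The 14 were spread over 4 complexes. NDUFS6 was at 13.99, 13.93 and 13.77 in the WT line and at 12.99, 13.04 and 13.21 in the mutant line (0.82, SE 0.113, adjusted p = 0.000763). NDUFB8 was at 14.11, 13.95 and 13.92 against 13.19, 13.20 and 13.26 (0.78, SE 0.117, adjusted p = 0.00127). ATP5PD, subunit d of the peripheral stalk of ATP synthase, was at 14.23, 14.41 and 14.25 against 13.62, 13.63 and 13.44 (0.74, SE 0.100, adjusted p = 0.000641). In each of these the lines stood clear of each other on every array. With the mean of all probe sets of a gene ATP5PD differed by 0.20 (adjusted p = 0.778) and NDUFB8 by 0.37 (adjusted p = 0.0781), and neither passed; NDUFS6 passed in all 22 alternatives.

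NDUFA8 (0.62, adjusted p = 0.00282), NDUFB2 (0.62, adjusted p = 0.00593), NDUFV3 (0.61, adjusted p = 0.0102) and NDUFB3 (0.42, adjusted p = 0.0291) were the other complex I members. Complex V added ATP5MC1 (0.51, adjusted p = 0.0259) and subunits of its membrane part, ATP5ME (0.49, adjusted p = 0.00681) and ATP5MJ (0.50, adjusted p = 0.0115). Complex III had its core subunit UQCRC2 (0.50, adjusted p = 0.0226). Complex IV had COX7A2L, a subunit homologue that joins complexes III and IV in supercomplexes (0.50, adjusted p = 0.0300), COX6B1 (0.38, adjusted p = 0.0323) and COX5A (0.30, adjusted p = 0.0482). UQCRC2, ATP5MC1, NDUFB3 and COX7A2L did not pass when single untreated arrays were left out (WT untreated replicate 2 or mutant untreated replicate 1 or 2 for all 4, other untreated arrays for some; adjusted p = 0.0505 to 0.139).

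Under quantile normalization, which also moved the median of all tested probe sets from -0.09 to 0.01, the untreated lines had 9 members higher and 1 lower and a member median of 0.10. The count was 8 without WT untreated replicate 2 and without mutant untreated replicate 1 or 2, 9 without mutant untreated replicate 3, and 22 without WT with tetracycline replicate 1. The lines also differed in signs of RNA quality: the 3′ actin control exceeded the 5′ one by a log2 ratio of 0.632 to 1.36 in the WT arrays and 0.227 to 0.288 in the mutant arrays, and the 18S control signal 8.22 to 9.44 against 6.76 to 8.12, while the GAPDH ratio overlapped (0.0152 to 0.168 against 0.0382 to 0.135). Their part in the comparisons between lines was not tested.

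With tetracycline in both lines 24 members were higher and 5 lower in the WT line, beside 10.2% and 17.3% of all tested probe sets (27.6% in either direction) and 25.9% and 10.5% of the other bright ones. Under quantile normalization the split was 14 higher and 8 lower, so the share of higher calls went from 82.8% to 63.6% and the member median from 0.22 to 0.06. Groups did not overlap for 33 members higher in the WT line and 7 lower, against 16.7% and 24.7% of all tested probe sets. Of the 24, 11 were also among the 14 higher in the untreated lines. The count fell from 29 to 18 without replicate 2 of either group.

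**Figure D3:**
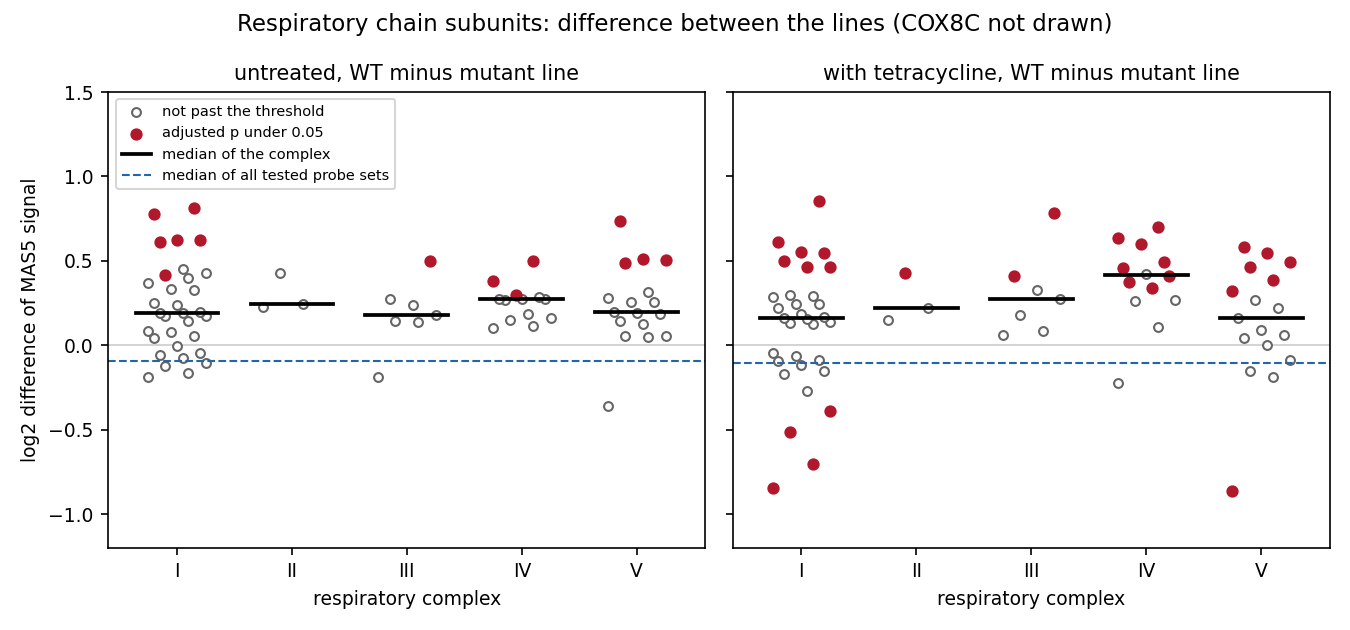
Each point is 1 member placed by complex, with the log2 difference of MAS5 signal between the lines (WT minus mutant), untreated on the left and with tetracycline on the right; filled points passed an adjusted p of 0.05, thick bars are medians of the complex and the dashed line is the median of all 29553 tested probe sets. All 14 filled points on the left lie above 0, and on the right 24 lie above and 5 below.

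Complex IV held 8 of the 24, all of them common subunits, with a median difference of 0.41 over its 14 tested members. COX6B1 was at 14.28, 14.58 and 14.72 in the WT line and at 13.80, 13.99 and 13.87 in the mutant line (0.64, SE 0.109, adjusted p = 0.00103). COX7A2L differed by 0.70 (adjusted p = 0.00258), COX7A2 by 0.60 (adjusted p = 0.00558), COX7B by 0.50 (adjusted p = 0.00758), COX6C by 0.46 (adjusted p = 0.0324), COX4I1 by 0.41 (adjusted p = 0.00590), COX8A by 0.37 (adjusted p = 0.0391) and COX7C by 0.34 (adjusted p = 0.0144). All 11 common subunits had a positive difference. Further probe sets of COX7C differed by 0.27 (mean 14.5, adjusted p = 0.131) and 0.48 (mean 11.8, adjusted p = 0.0677) without passing. A further bright one of COX4I1 passed (0.44, adjusted p = 0.0105), and a dim one did not (-1.78, adjusted p = 0.135). A dim one of COX7B was lower (-3.01, adjusted p = 0.00188).

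Complex V had 6 members higher, and all 4 tested small subunits of its membrane part were among them: ATP5MJ (0.58), ATP5MG (0.55), ATP5MK (0.46) and ATP5ME (0.32). The others were ATP5PD (0.50) and ATP5IF1 (0.39), the protein that inhibits ATP synthase when it runs backwards. The brightest probe set of ATP5MF, another small subunit of the membrane part, was below the filter (mean 3.81) and was not tested. Whether that probe set reads the transcript well was not examined, so its value is not taken as absence of the transcript. A second probe set of ATP5ME (mean 12.1) differed by 0.04 and did not pass (adjusted p = 0.907). Further probe sets of ATP5MJ (0.39) and ATP5MG (0.64 and 0.55) passed, and a dimmer one of ATP5MG (-0.21) did not. ATP5F1D was lower, at 10.85, 10.83 and 11.31 in the WT line against 11.74, 11.98 and 11.87 in the mutant line (-0.86, SE 0.145, adjusted p = 0.000941). Complex III had UQCRB (0.78, adjusted p = 0.00324) and UQCRC2 (0.41, adjusted p = 0.0313), and complex II had SDHA, its flavoprotein (0.43, adjusted p = 0.0312). A second probe set of UQCRC2, nearly as bright (mean 12.7), differed by 0.30 and did not pass (adjusted p = 0.167). A nearly as bright one of UQCRB passed (0.78, adjusted p = 0.00143), and dimmer ones did not (0.37 and -2.61).

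Complex I went both ways, with 7 members higher and 4 lower. NDUFV3 (0.85, adjusted p = 0.000642), NDUFA6 (0.61, adjusted p = 0.00719), NDUFB8 (0.55, adjusted p = 0.00373), NDUFB3 (0.54, adjusted p = 0.00380), NDUFB2 (0.50, adjusted p = 0.00938), NDUFA8 (0.46, adjusted p = 0.00676) and NDUFB5 (0.46, adjusted p = 0.0205) were higher. The second, nearly as bright probe set of NDUFB8 differed by 0.15 and did not pass (adjusted p = 0.292). Dimmer probe sets of NDUFB2 (mean 11.8, 0.38, adjusted p = 0.155) and NDUFA6 (mean 9.57, 0.02, adjusted p = 0.945) did not pass either. NDUFA7 (-0.85, adjusted p = 0.000323), NDUFB7 (-0.70, adjusted p = 0.0171), NDUFB10 (-0.51, adjusted p = 0.0160) and NDUFV1 (-0.39, adjusted p = 0.0189) were lower. NDUFA7 and NDUFB7 are among the genes that fell in the WT line with tetracycline, whose arrays this comparison shares.

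For complex IV, 6 tissue isoforms of its subunits were on the array beside their common partners, and signals of different probe sets are not compared as amounts because each binds with its own strength. COX6B2, COX7A1 and COX7B2 stayed below the filter of 6.39 in every group mean. COX4I2, known from lung and from cells short of oxygen, had group means of 6.95 ± 0.300, 7.10 ± 0.365, 6.79 ± 0.359 and 7.33 ± 0.547 (SD, n = 3; untreated and treated WT line, then untreated and treated mutant line). COX6A2, the heart and muscle isoform, had 6.65 ± 0.420, 6.67 ± 0.481, 6.54 ± 0.483 and 6.25 ± 0.555. For neither did any of the 4 groups stand apart from the others.

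COX8C was at 4.19, 4.90 and 1.38 in the WT untreated arrays, at 6.31, 6.91 and 7.29 in the WT arrays with tetracycline, at 4.92, 5.31 and 5.24 in the mutant untreated ones and at 5.61, 5.70 and 5.04 in the mutant ones with tetracycline. The WT arrays with tetracycline were above all others, and 1 WT untreated array lay far below the other 2. COX8C passed the filter through the 1 group where it was high, so its difference of 3.35 in the WT line is given as a description; the WT untreated arrays were all below the filter, and the difference was 2.06 without the replicate 3 arrays of all groups. Without the tissue isoforms 3 of 70 tested members were higher and 9 lower in the WT line.

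**Figure D4:**
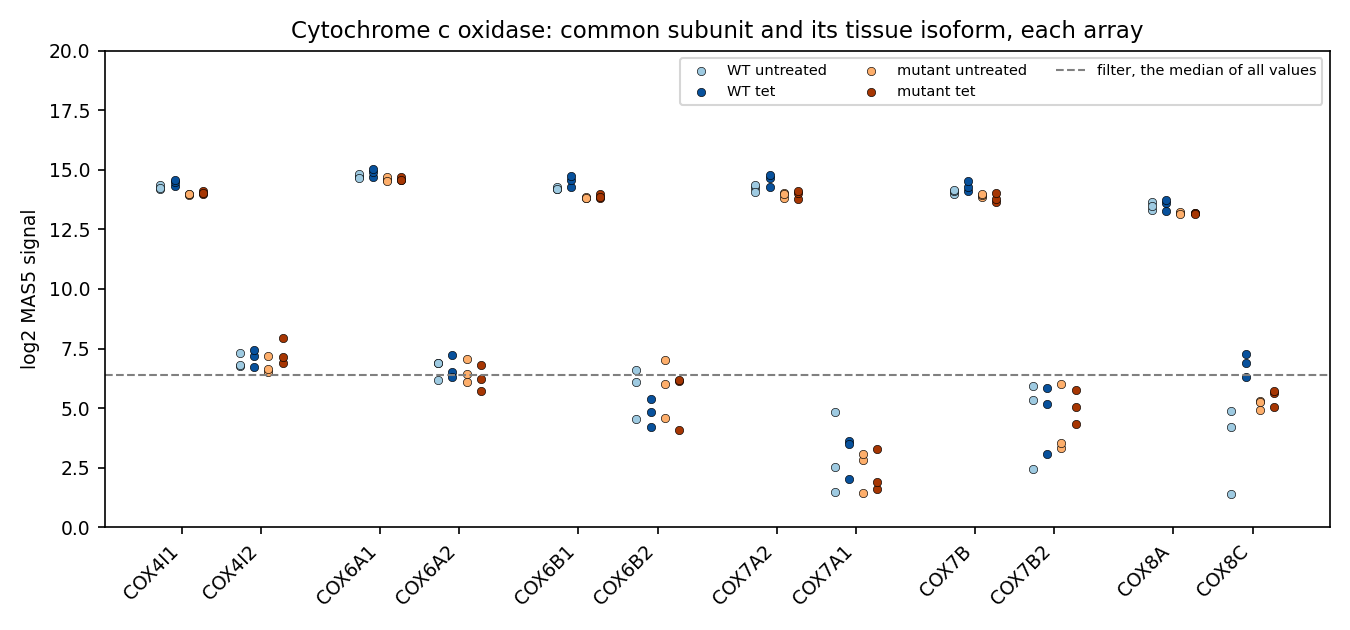
Points are single arrays in the 4 groups for 6 common subunits of cytochrome c oxidase and, to the right of each, its tissue isoform, on a vertical axis of log2 MAS5 signal; the dashed line is the filter, the median of all values. COX4I2 lies just above the filter on all 12 arrays, the other isoforms lie around or below it, and COX8C has its 3 WT arrays with tetracycline above its other arrays.

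The 77 members had 151 probe sets in all, and 57 second or further ones passed the filter. In the WT line with tetracycline these other probe sets gave calls that the brightest ones did not: 9 of 57 passed where the brightest probe set had not, and all 9 were lower, beside 9.11% lower among all tested probe sets. COX7B had a probe set of mean signal 8.19 that changed by -3.09 (SE 0.568, adjusted p = 0.00258), beside 0.22 on its brightest one, of mean signal 14.0. ATP5MC3 likewise changed by -2.08 (SE 0.256, adjusted p = 0.000272) on a probe set of mean 9.68 and not on the brightest one. NDUFA10 (-2.16), ATP5PB (-1.46), UQCR10 (-1.44), UQCR11 (-0.90), NDUFS1 (-0.78), ATP5MG (-0.74) and NDUFB10 (-0.56) were the others. The third probe set of ATP5MC3, nearly as bright as the brightest (mean 13.9), differed by -0.09 (adjusted p = 0.577), so the call rests on the dim one.

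For NDUFB8 and UQCRB 1 further probe set, nearly as bright, passed in the direction of the brightest one. Dimmer ones of the same genes did not pass, with 0.28 for NDUFB8 and -0.06 and -2.42 for UQCRB. NDUFV3 passed in opposite directions (0.51 on the brightest, -0.77 on a dimmer one). For 5 of the 57 the brightest probe set of the gene was called and the other was not, and for 40 neither was. Between the untreated lines both were called for 1 of the 57, in the same direction. Only the brightest was called there for 8 and only the other for 8. Between the lines with tetracycline both were called in the same direction for 6 and in opposite directions for 3. Only the brightest was called there for 16 and only the other for 9. With tetracycline the lines differed in opposite directions on the probe sets of ATP5IF1 (0.39 and -1.09), COX7B (0.50 and -3.01) and NDUFV3 (0.85 and -0.85). NDUFS1, the largest core subunit of complex I, had 3 dimmer probe sets that were lower in the WT line, by -1.39, -1.14 and -1.22 untreated and by -1.55, -1.61 and -1.18 with tetracycline, while another dimmer one differed by 0.25 and -0.09 and its brightest one by 0.04 and 0.16, without passing. COX5B had a dim probe set (mean 7.34) that was higher in the WT line, by 2.29 untreated (adjusted p = 0.00129) and 3.47 with tetracycline (adjusted p = 4.6e-05), beside 0.27 and 0.27 on its brightest one, which did not pass, and 0.29 and 0.38 on a bright one that passed with tetracycline (adjusted p = 0.0160). What part of each transcript these probe sets read was not examined.

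**Figure D5:**
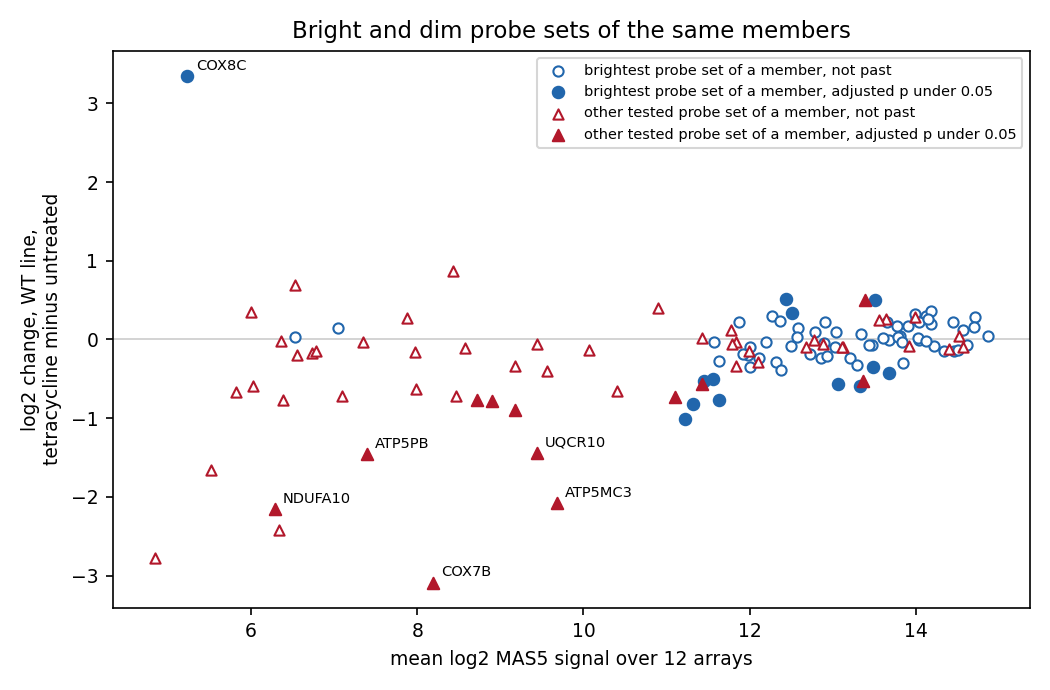
Each symbol is 1 probe set of a member, with its mean log2 MAS5 signal over 12 arrays on the horizontal axis and its log2 change with tetracycline in the WT line on the vertical axis; circles are the brightest probe set of a member, triangles its other tested ones, and filled symbols passed an adjusted p of 0.05. The filled triangles between signals of 6 and 12 all lie below 0, down to -3.09 for COX7B.

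Other genes of the same pathway are given from lists written with earlier results of these data known. Of the 53 tested assembly factors, which build the complexes, 3 rose and 9 fell in the WT line with tetracycline, with a median of -0.16, beside 7.83% higher, 9.11% lower and a median of 0.02 among all tested probe sets; the counts of the other lists are read against the same shares. COX20, a chaperone of a complex IV core subunit, changed by -1.06 (adjusted p = 0.000683), LYRM7, which serves the iron-sulfur protein of complex III, by -2.54 (adjusted p = 0.00273), COA3, a complex IV factor, by -0.66 (adjusted p = 0.00655) and SURF1, another complex IV factor, by 0.61 (adjusted p = 0.00422). Of the 19 mobile carriers and genes of coenzyme Q synthesis 1 rose and 3 fell. PDSS1 and PDSS2, the subunits of the enzyme that makes the tail of coenzyme Q, went apart, with -1.13 (adjusted p = 0.00778) and 0.58 (adjusted p = 0.0337). COQ8A (-0.65, adjusted p = 0.00685) and the methyltransferase COQ5 (-0.73, adjusted p = 0.00733) fell.

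Of 17 tested genes of the citric acid cycle and pyruvate entry 3 fell, beside 9.11% of all tested probe sets: MPC1 of the mitochondrial pyruvate carrier (-0.92, adjusted p = 0.00123) and PDHB (-1.03, adjusted p = 0.0140) and DLAT (-0.70, adjusted p = 0.00667) of pyruvate dehydrogenase. Of 19 tested regulators 2 fell, TEFM (-0.91, adjusted p = 0.00166) and TFB2M (-0.68, adjusted p = 0.0383), which serve transcription of mitochondrial DNA. NRF1 itself differed by 0.30 (adjusted p = 0.228) and YY1 by 0.21 (adjusted p = 0.306). Of the 7 matched subunits encoded by mitochondrial DNA 0 passed limma's threshold; 1 had an unadjusted p under 0.05, and their median was 0.20 with a smallest adjusted p of 0.125. In the mutant line 0 genes of all 5 lists passed, and 1, an assembly factor, had an unadjusted p under 0.05.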

How the data were processed

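Total RNA of 12 samples was measured on 1 array each. Per the submitters' processing notes the authors used MAS5, and the deposited table holds 1 linear intensity per probe set and array; the MAS5 version is not given in the sources used here. The mean signal after trimming 2% at each end was 499.9 on each array, so the authors had scaled the arrays to a common mean. Signals under 1 (0.337% of values) were set to 1 before log2 was taken. Of 54675 probe sets, 62 AFFX controls were left out, and tests were run on the 29553 probe sets with a group mean over 6.39 in at least 1 group, which is the median of all log2 values. Genes came from the platform annotation (41097 probe sets with 1 symbol, 1801 with several, 11777 with none). All columns of the table were used (0 left out).

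All 12 arrays entered 1 fit with a mean per group (limma 3.58.1 in R 4.3.3, eBayes with trend). Its p-values were 2-sided and adjusted by Benjamini-Hochberg over all tested probe sets in each comparison. The fit shares 1 spread over the 4 groups. It was checked on simulated data with the same spread in all groups, so that check does not cover unequal spreads. The median SD of all tested probe sets was 0.299 (WT untreated) and 0.326 (WT with tetracycline), against 0.174 and 0.190 in the mutant groups. For the tested members it was 0.117, 0.191, 0.0813 and 0.120 in the same order. The number of arrays limits the precision. Members, gene lists and tests were chosen with earlier results of these data known. Named were, in each comparison, the 12 called members with the smallest adjusted p, or the 5 with the smallest p where fewer than 5 were called, the largest rise and fall of each complex, the tissue isoforms with their common partners, members whose probe sets disagreed, and 4 genes of each pathway list. Further called members, and members named for their role, were chosen after their values were seen. Replicate numbers were not treated as pairs: over all tested probe sets, deviations of same-numbered arrays correlated between -0.00530 and 0.254. Untreated and treated arrays of the same number in the WT line correlated at 0.254, 0.240 and 0.0418 (replicates 1 to 3). In the mutant line these values were 0.137, 0.0258 and 0.21, so within a line all were positive. The median signal of the 77 members was lowest on replicate 1 in each group. Replicates 1, 2 and 3 were at 13.309, 13.39 and 13.418 (WT untreated) and 13.145, 13.227 and 13.249 (WT with tetracycline). In the mutant line they were at 12.985, 13.038 and 13.04 untreated and 12.89, 12.935 and 13.034 with tetracycline. Whether same-numbered arrays belong together was not tested for the members. Tables and figures were made with pandas 2.3.3 and matplotlib 3.10.9 in Python 3.11.15.

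The alternatives were quantile normalization, no filter, a stricter filter (8.92), an added offset of 16, no trend in eBayes, only the arrays compared in the fit, a replicate block, array weights, the mean of all probe sets of a gene, each array left out in turn, and all replicate 3 arrays left out.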

Additional observations from a re-analysis of the deposited data

Results flagged for a closer look

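NDUFA7 changed differently with tetracycline in the 2 lines by the test of that difference in the limma fit. The WT induction minus the mutant induction was -1.047 on the log2 scale (SE 0.170, adjusted p = 0.0405), made up of -1.01 (WT) and 0.04 (mutant). Every WT array with tetracycline was below the 9 others.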

How the results depend on the processing

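The count of called members was taken under every alternative and is given here where it moved by over 1.5 times. In the WT induction it was 13, with 6 by eBayes without trend, 4 in a fit of only the arrays compared, 2 without the replicate 3 arrays of all groups, and 5 to 19 with each array left out in turn. The 4 in the fit of only the arrays compared were NDUFA7, ATP5MC1, NDUFS6 and NDUFB7, all lower. In the difference between the inductions it was 1, with 0 without a filter, 0 without trend, 0 with the mean of all probe sets of a gene, 0 without the replicate 3 arrays, 3 with array weights and 0 to 5 with each array left out. Between the untreated lines it was 14, with 7 without trend, 6 without the replicate 3 arrays and 8 to 22 with each array left out. Between the lines with tetracycline it was 29, with 19 without trend, 11 without the replicate 3 arrays and 18 to 37 with each array left out. Leaving out arrays leaves fewer samples in the fit; for the other settings the cause was not tested. In the mutant induction it was 0 under every alternative run, array weights included.

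With the mean of all probe sets of a gene, 4 named values changed sign: NDUFV3 (-0.13) and UQCRB (-0.37) in the WT induction, and UQCRB (-0.17) and COX4I1 (-0.27) between the lines with tetracycline. That setting takes in all probe sets of a gene, the dimmer ones included. Under it NDUFA7, NDUFB7, ATP5MC2 and ATP5F1D no longer passed in the WT induction, NDUFA7 in the difference between the inductions, ATP5PD, NDUFB8, NDUFB2, ATP5ME, NDUFV3, ATP5MJ and UQCRC2 between the untreated lines, and NDUFA7, NDUFV3 and NDUFB8 between the lines with tetracycline.

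The labels do not say what the replicate numbers stand for. With a replicate block the counts were 16 (WT induction), 0 (mutant induction), 1 (difference), 22 (untreated lines) and 32 (lines with tetracycline). For the dim tissue isoforms the signal itself, near or below the filter, limits what can be said.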
